A study of Mus musculus with 6 samples.

Results

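Calcium-activated potassium channels open when calcium rises in the cytosol and let potassium leave the cell. The 9 genes described here are Kcnmb1, 7 further subunit genes of these channels (Kcnma1, Kcnmb2, Kcnmb4, Kcnn1, Kcnn2, Kcnn3 and Kcnn4) and Kcna3, a voltage-gated potassium channel of lymphocytes. Kcnmb1 was selected on its change on these same arrays, so its change is given as a description. The other 8 were chosen by gene family, and the probe set of each gene was selected by the highest mean of the 6 arrays. These 9 of 19938 genes with a probe set of their own carry 10 probe sets, because Kcnma1 has 2.

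Expression was measured in C1498, a mouse cell line of C57BL/6J background that the labels call an acute myeloid leukemia line. The cells were given PJ34, an inhibitor of PARP-1, at 20 μM for 48 h, or PBS for the same time, with 3 Affymetrix Mouse Gene 1.0 ST arrays per group. Both groups were grown in the same medium, and no genetic change is given for either. Each value is a log2 expression value, so that a difference of 1 is a doubling, and probe sets differ in affinity, so that levels of different genes are not compared with each other. The study calls its array experiments independent, but the labels do not say whether the replicates were separate cultures, and p-values measure only the spread between these arrays. The array medians lay between 4.41 and 4.46, and correlations were 0.992 to 0.995 within and 0.992 to 0.994 between groups.

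The myeloid label was checked against marker genes. The 1023 probe sets of olfactory receptors, genes of the sensory neurons of the nose, served as a measured floor, with a 95th percentile of 3.85 in PBS. The median over all probe sets, 4.41 in PBS, also lay above that percentile. A count of markers above it therefore does not show that a cell type is present. Of the myeloid markers, Spi1 (3.43 in PBS), a transcription factor, and the integrin Itgam (3.77) lay below that percentile, and the granule enzyme Mpo (3.88) lay just above it. Cd3e, a subunit of the T cell receptor complex, had a value of 10.38 in PBS, at the 97.0th percentile of all probe sets. Neither set was uniform, since 7 of 18 myeloid markers lay above that percentile, Fcgr1 at 6.82 among them, and 7 of 19 T and NK cell markers did not, Cd4 at 3.83 among them. Of 11 mast cell and megakaryocyte markers 6 lay above that percentile, Cpa3 at 11.87 among them, and others did not, such as Fcer1a at 2.25. The line is called here by its name only. Of 15 markers of smooth muscle, where Kcnmb1 is best known, 7 lay above the 95th percentile of the olfactory receptors in PBS. Acta2 (4.39) and Myh11 (4.45) were among them, and the list mean was 3.87 to 3.95 on the PBS arrays. Of 10 neuron markers 6 lay above it, Rbfox3 (4.13) and Map2 (6.26) among them.

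As background, the large-conductance BK channel is built from pore-forming alpha subunits, encoded by Kcnma1, and modulatory beta subunits, encoded by Kcnmb1, Kcnmb2 and Kcnmb4. A beta subunit forms no channel alone and changes how readily the pore opens in response to calcium. Small- and intermediate-conductance channels, encoded by Kcnn1 to Kcnn3 and by Kcnn4, sense calcium through bound calmodulin. In T cells the KCNN4 and KCNA3 channels hold the membrane potential negative and so keep calcium flowing in through store-operated channels.

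Kcnmb1 was the member with the largest difference. Its log2 expression values were 5.56, 5.04 and 5.40 on the PBS arrays and 6.67, 6.93 and 6.70 on the PJ34 arrays. All PJ34 values lay above all PBS values, with a gap of 1.11 between the lowest PJ34 and the highest PBS value. The difference was 1.44 (SE 0.13, 95% interval 1.13 to 1.74, n = 3 per group), a 2.70-fold higher signal (2.19 to 3.34). It had rank 6 among the rises of the 23412 probe sets tested. The mean stood at the 61.7th percentile of all probe sets in PBS and at the 74.4th with PJ34. The PBS arrays spread by an SD of 0.27 and the PJ34 arrays by 0.14, and the within-group SD was larger than in 95.1% of probe sets. The lowest PBS value came from replicate 2, without which the difference was 1.29. Leaving out any 1 array gave 1.29 to 1.55. In RNA from a whole culture, more cells of a type and more RNA per cell cannot be told apart.

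**Figure D1:**
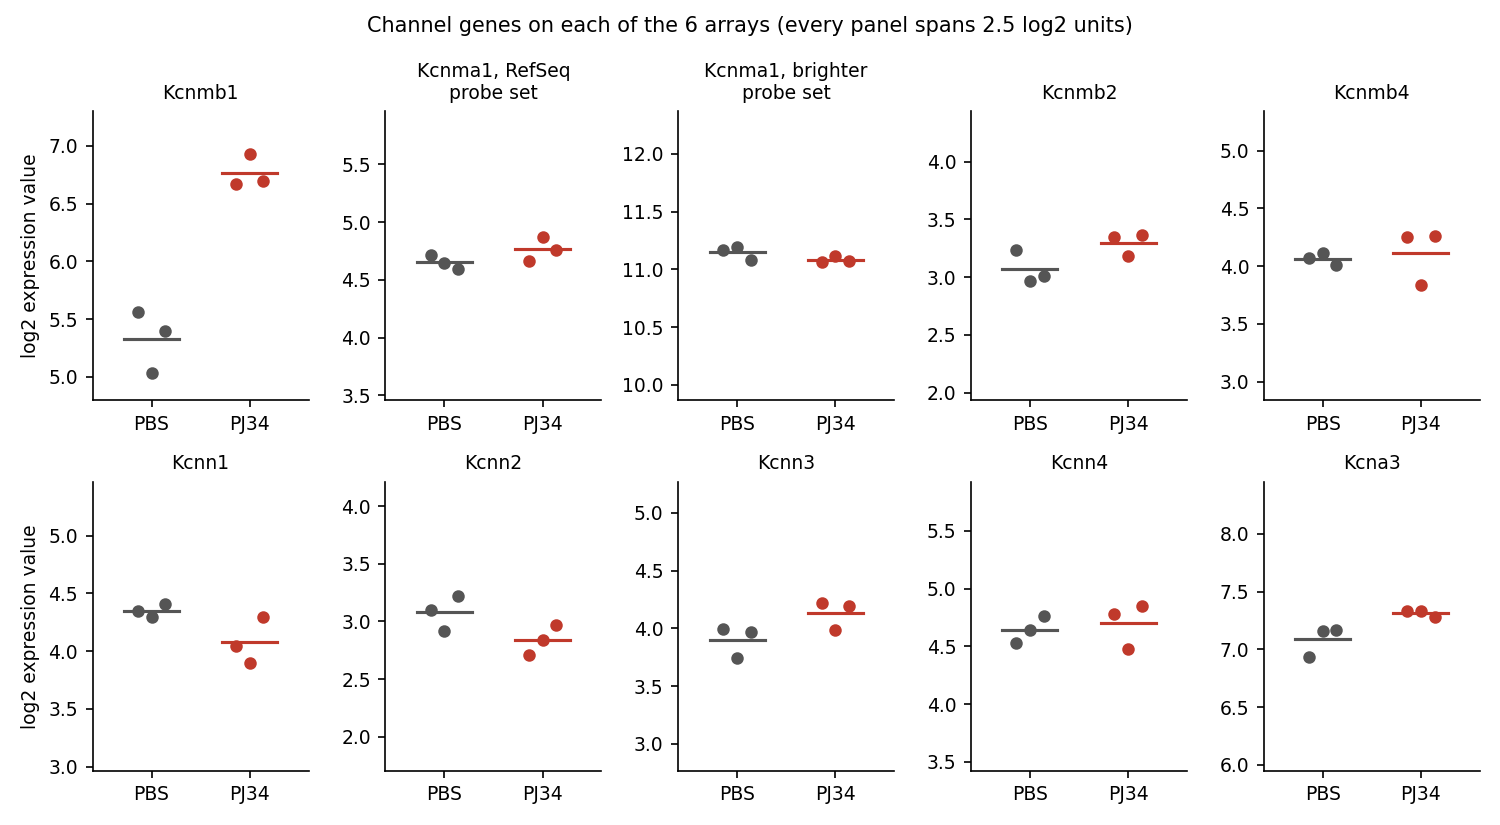
Log2 expression value (vertical axis) of the 10 probe sets on each array, in grey for PBS and red for PJ34, where short lines mark means of 3 arrays and every vertical axis has the same span. Only for Kcnmb1 and Kcna3 do the groups not overlap, with gaps of 1.11 and 0.11.

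The sequence in front of Kcnmb1 is shown beside that of Lcp2, the next gene on the chromosome, because both genes had higher values with PJ34. For this, 192 bases are given for each, from 250 to 59 bases before the RefSeq start (GRCm38.p6, plus strand). The window lies at chr11:33962763-33962954 for Kcnmb1 and at chr11:34046678-34046869 for Lcp2. Capitals mark matches to GGAAA on either strand, the core bound by NFAT, a calcium-controlled transcription factor.
Kcnmb1: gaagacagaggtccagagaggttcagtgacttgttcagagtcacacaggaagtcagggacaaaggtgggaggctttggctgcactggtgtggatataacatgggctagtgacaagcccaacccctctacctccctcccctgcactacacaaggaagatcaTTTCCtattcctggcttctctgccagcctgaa
Lcp2: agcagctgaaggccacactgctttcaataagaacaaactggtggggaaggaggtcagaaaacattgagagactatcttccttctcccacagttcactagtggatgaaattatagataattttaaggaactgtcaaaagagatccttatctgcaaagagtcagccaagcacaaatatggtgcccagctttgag

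The Kcnmb1 window held 1 match to GGAAA, on the minus strand, and the Lcp2 window held 0. Of all 32851 promoter windows of this length 47.3% held this core, so a match is common. Neither window held TGANTCA, the AP-1 site (5.28% of windows), TGACGTCA, the cyclic AMP response element (0.728%), or a CArG box, the site of serum response factor (1.08%), on either strand. With 1 match in all, no matches overlapped.

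The pore of the BK channel, Kcnma1, has a bright and a dim probe set. By the highest mean, it was represented by a probe set with values of 11.17, 11.19 and 11.08 in PBS and 11.06, 11.11 and 11.07 with PJ34. This bright signal, at the 98.3rd percentile of all probe sets, overlapped between the groups and did not pass the test (log2 difference -0.06, SE 0.062, adjusted p = 0.682 from limma). The gene table lists 4 accessions for it, and none of them is a RefSeq transcript of Kcnma1. All 12 named probe sets next to it in the array's numbering belong to genes of chromosome 8, whereas Kcnma1 lies on chromosome 14. The sequence this probe set reads is not known here.

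The other Kcnma1 probe set lists 17 RefSeq transcripts of the gene among 20 accessions, and all 11 neighbours of known place in the numbering lie on chromosome 14. It read 4.72, 4.65 and 4.59 in PBS and 4.66, 4.87 and 4.76 with PJ34. These values overlap between the groups and lay near the middle of all probe sets (53.7th percentile in PBS), above 98.9% of the olfactory receptor probe sets. The difference was 0.11 (SE 0.074, 95% interval -0.06 to 0.28, adjusted p = 0.522 from limma). Neither probe set passed the test.

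Kcnmb2 and Kcnmb4, the other beta subunits among the 9 genes, did not pass the test. Kcnmb2, a beta subunit that can also inactivate the channel, read 3.23, 2.96 and 3.01 in PBS and 3.35, 3.18 and 3.37 with PJ34, above 81.3% of the olfactory receptor probe sets in PBS. Kcnmb4, the beta subunit best known from neurons, read 4.07, 4.11 and 4.01 in PBS and 4.25, 3.84 and 4.26 with PJ34. The groups overlapped for both genes. The log2 difference was 0.23 (95% interval 0.02 to 0.43, adjusted p = 0.244 from limma) for Kcnmb2 and 0.05 (-0.21 to 0.31, adjusted p = 0.878) for Kcnmb4.

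**Figure D2:**
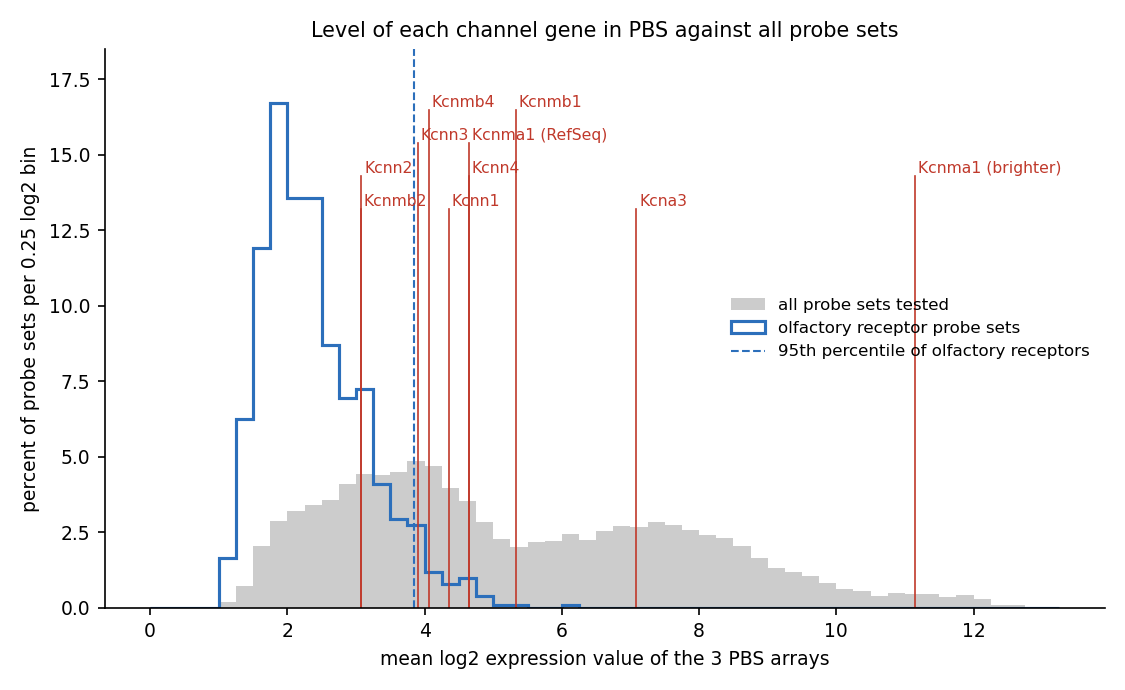
Percent of probe sets (vertical axis) by the mean log2 expression value of the 3 PBS arrays (horizontal axis), for all 23412 probe sets tested (grey) and the 1023 olfactory receptor probe sets (blue line), with the member probe sets in red. Kcnmb2 and Kcnn2 lie left of the dashed 95th percentile of the olfactory receptors at 3.85, and the brighter Kcnma1 probe set stands far to the right of the one with RefSeq transcripts.

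The small-conductance genes Kcnn1, Kcnn2 and Kcnn3, whose channels shape firing in neurons, did not pass the test. Kcnn1 read 4.34, 4.295 and 4.41 in PBS and 4.05, 3.90 and 4.295 with PJ34, so that the groups met at 4.295, and its PBS mean was at the 48.9th percentile of all probe sets. Kcnn2 read 3.10, 2.92 and 3.22 in PBS and 2.71, 2.84 and 2.97 with PJ34, and 81.4% of the olfactory receptor probe sets were dimmer in PBS. Kcnn3 read 3.998, 3.74 and 3.97 in PBS and 4.22, 3.99 and 4.19 with PJ34. Kcnn2 and Kcnn3 each overlapped between the groups by 1 pair of arrays. Log2 differences were -0.27 (SE 0.10) for Kcnn1, -0.24 (SE 0.097) for Kcnn2 and 0.23 (SE 0.094) for Kcnn3, and none passed the limma test (adjusted p = 0.217, 0.258 and 0.258).

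Neither of the lymphocyte channels passed the test. Kcnn4 read 4.53, 4.64 and 4.76 in PBS and 4.78, 4.48 and 4.85 with PJ34, close to the median of all probe sets (53.5th percentile in PBS). Its log2 difference was 0.06 (SE 0.108), and the 95% interval of the ratio was 0.880 to 1.24. Kcna3 read 6.93, 7.16 and 7.16 in PBS and 7.33, 7.33 and 7.28 with PJ34 (77.3rd percentile in PBS). All 3 PJ34 values lay above all PBS values by a small gap of 0.11, at a ratio of 1.17 (1.03 to 1.33). The adjusted p values were not under 0.05 (adjusted p = 0.846 for Kcnn4 and 0.185 for Kcna3 from limma). For Kcna3 the exact two-sided permutation test gave p = 0.1, the smallest that 3 against 3 allow.

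Over the 8 genes other than Kcnmb1, 0 rose and 0 fell at an adjusted p under 0.05 from limma. Over all 23412 probe sets 3.07% were called, 1.72% higher and 1.35% lower. An unadjusted p under 0.05 was found for 5 of the 8 and for 16.7% of all probe sets, with positive differences for Kcnmb2, Kcnn3 and Kcna3 and negative ones for Kcnn1 and Kcnn2. The median difference of the 8 was 0.06, against 0.0029 over all probe sets. Kcnma1 entered these counts and the median through its bright probe set (-0.06), which lists no RefSeq transcript of the gene. Its probe set with RefSeq transcripts differed by 0.11 and was not called either. Only Kcna3 had groups that did not overlap, 1 of 8, which was true of 23.5% of all probe sets. No call was made for any of the 8 in any alternative setting in which it was tested, the methods' t-test included. The filter on dim probe sets left out Kcnmb2, Kcnmb4, Kcnn1, Kcnn2 and Kcnn3.

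**Figure D3:**
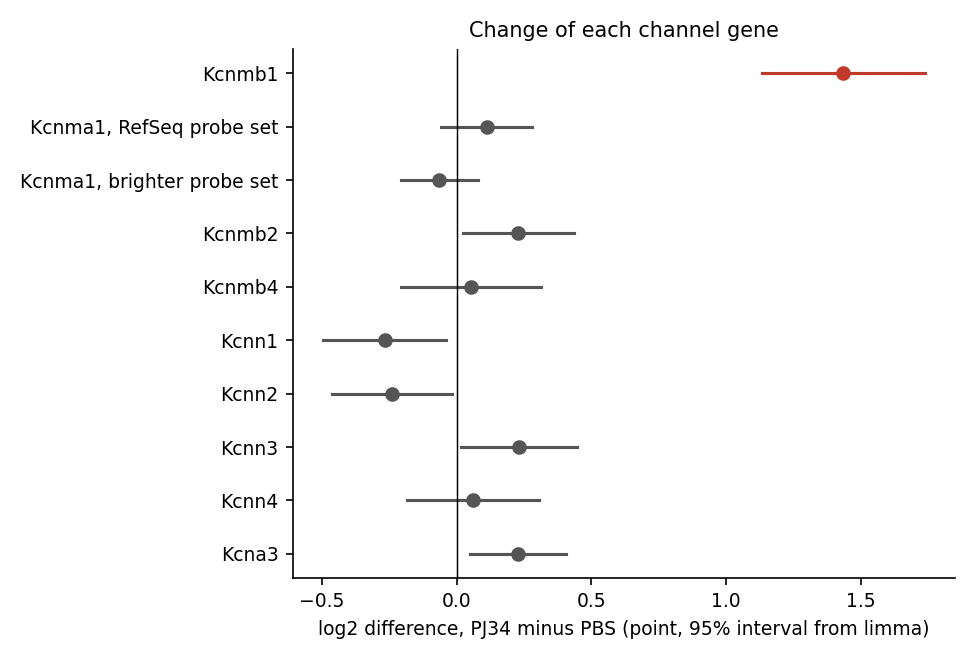
Log2 difference, PJ34 minus PBS (horizontal axis), of the 10 probe sets, with points at the estimate and bars for the 95% interval from limma. Kcnmb1 (red, chosen for this change) stands at 1.44, and all others lie between -0.27 and 0.23.

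The genes beside Kcnmb1 on chromosome 11 were also read. Of the 10 protein-coding genes next to it, 5 on each side, 2 rose (20.0%, against 1.72% of all probe sets) and 0 fell. Lcp2, whose upstream sequence is printed beside that of Kcnmb1, encodes SLP-76, an adaptor that couples the T cell receptor to calcium signals. It read 6.34, 6.29 and 6.23 in PBS and 6.67, 6.86 and 6.755 with PJ34, with no overlap. Its log2 difference was 0.48 (SE 0.072, adjusted p = 0.0129 from limma). Spdl1, a spindle protein and the farthest of the 5 on that side, read 5.57, 5.44 and 5.53 in PBS and 5.87, 6.20 and 5.88 with PJ34. Its log2 difference was 0.47 (SE 0.097, adjusted p = 0.0397 from limma). Between them lie Foxi1 (0.19), Dock2 (0.11) and Insyn2b (-0.12), which did not pass.

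Kcnip1, a modulator of voltage-gated potassium channels, overlaps Kcnmb1 in the annotation and had a probe set of its own. It read 3.05, 3.08 and 2.99 in PBS and 3.34, 2.89 and 3.15 with PJ34, near the floor and overlapping between the groups, with a difference of 0.09 (SE 0.108). On that same side Gabrp (0.21), Ranbp17 (0.09), Tlx3 (0.10) and Npm1 (-0.11) did not pass. The call of Lcp2 was lost without PBS replicate 2 (adjusted p = 0.0608) and without PBS replicate 3 (adjusted p = 0.0641), and that of Spdl1 was kept in only 1 of the 6 fits that left out an array, without PJ34 replicate 2. The methods' t-test called 0 of the 10 after adjustment.

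**Figure D4:**
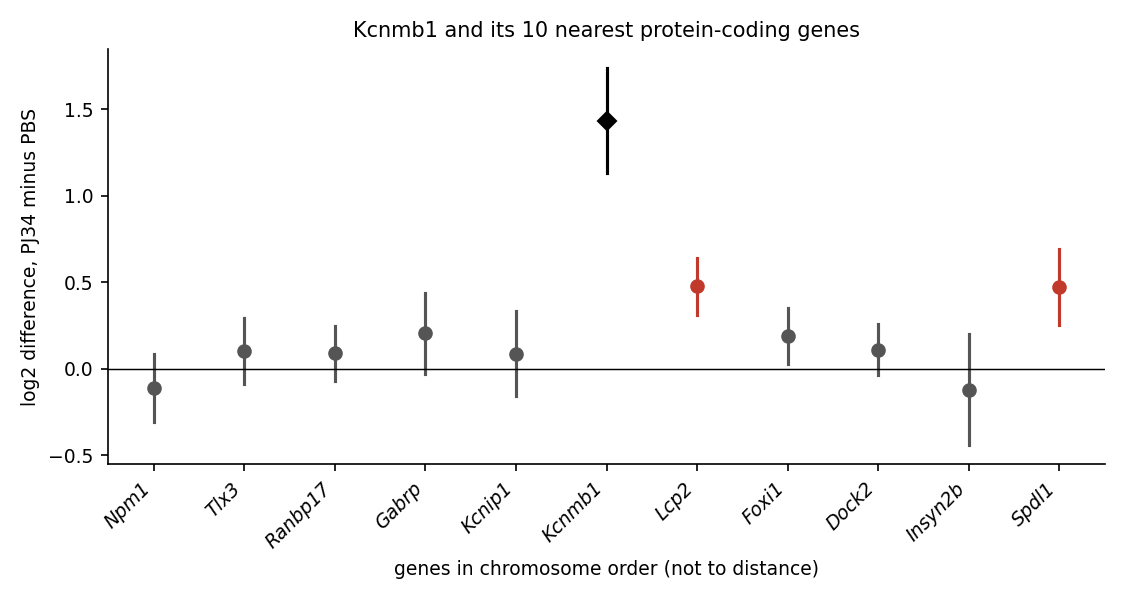
Log2 difference, PJ34 minus PBS (vertical axis), of Kcnmb1 (black diamond) and of 10 genes next to it, in chromosome order and not to distance. Red points passed the limma test and grey ones did not, bars are 95% intervals, and Lcp2 and Spdl1 stand at 0.48 and 0.47.

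Other potassium channels were counted beside these. Of 84 further potassium channel genes (46 voltage-gated subunits, 31 inward rectifiers and two-pore-domain channels, and 7 BK gamma subunits and Slo relatives), 1 was called (1.19%, against 3.07% of all probe sets). A single call does not set these genes apart from the rest of the array. It was Kcnq5, a voltage-gated channel of the M-current type, which read 8.24, 8.16 and 8.15 in PBS and 7.85, 7.92 and 7.80 with PJ34. It fell by 0.33 on the log2 scale (SE 0.065, adjusted p = 0.0347 from limma), and its call was kept in only 1 of the 6 fits that left out an array, without PJ34 replicate 2. None of the 84 had a difference over 1 in size, and the largest rise among them was 0.28 for Kcnc2. The median differences of the 3 lists were 0.00, 0.02 and 0.08. Among the regulators of KCNN4 and the other calcium-activated channels, such as the chloride channel Ano1 and the cation channel Trpm4, 0 of 5 and 0 of 9 were called by limma, with 0 in both at an unadjusted p under 0.05.

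Genes that bring calcium into the cytosol moved downward where they passed. Of 29 measured genes of calcium entry and store release, 4 fell (13.8%, against 1.35% of all probe sets) and 0 rose, and the list median was -0.01. The list was chosen with earlier results of these data known. It includes P2rx3, which had the largest fall of all 23412 probe sets, so this share is no test. P2rx3, an ATP-gated channel that conducts calcium, read 7.56, 7.74 and 7.69 in PBS and 5.72, 6.06 and 5.75 with PJ34, a fall of the opposite sign to Kcnmb1 (log2 difference -1.82, SE 0.10). A dimmer probe set of P2rx3 differed by -0.575 (adjusted p = 0.0512 from limma), and the mean over both fell by 1.20. The store sensor Stim2 (log2 difference -0.36, adjusted p = 0.0163 from limma) read 8.29, 8.28 and 8.30 in PBS and 7.92, 7.91 and 7.96 with PJ34. The voltage-gated calcium channel Cacna1d (-0.48) and the ATP-gated channel P2rx1 (-0.31) also fell (adjusted p = 0.0261 and 0.0489 from limma). When each array was left out in turn, P2rx3 passed in all 6 fits, Stim2 and Cacna1d in 1, without PJ34 replicate 2, and P2rx1 in 0.

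Calcium pumps and calmodulin genes were counted in the same way. Of 14 genes of calcium clearance and mitochondrial uptake, 0 were called, against 3.07% of all probe sets. An unadjusted p under 0.05 from limma was found for 2 of them and for 16.7% of all probe sets. Of 21 genes of calmodulin and its effectors, 0 fell and a single gene rose (4.76%, against 1.72% of all probe sets). This was Nfatc2, a transcription factor that calcium activates through calcineurin. It read 6.01, 5.99 and 5.93 in PBS and 6.33, 6.36 and 6.25 with PJ34 (log2 difference 0.34, SE 0.064, adjusted p = 0.0298 from limma), and its call was lost whenever any 1 array was left out.

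**Figure D5:**
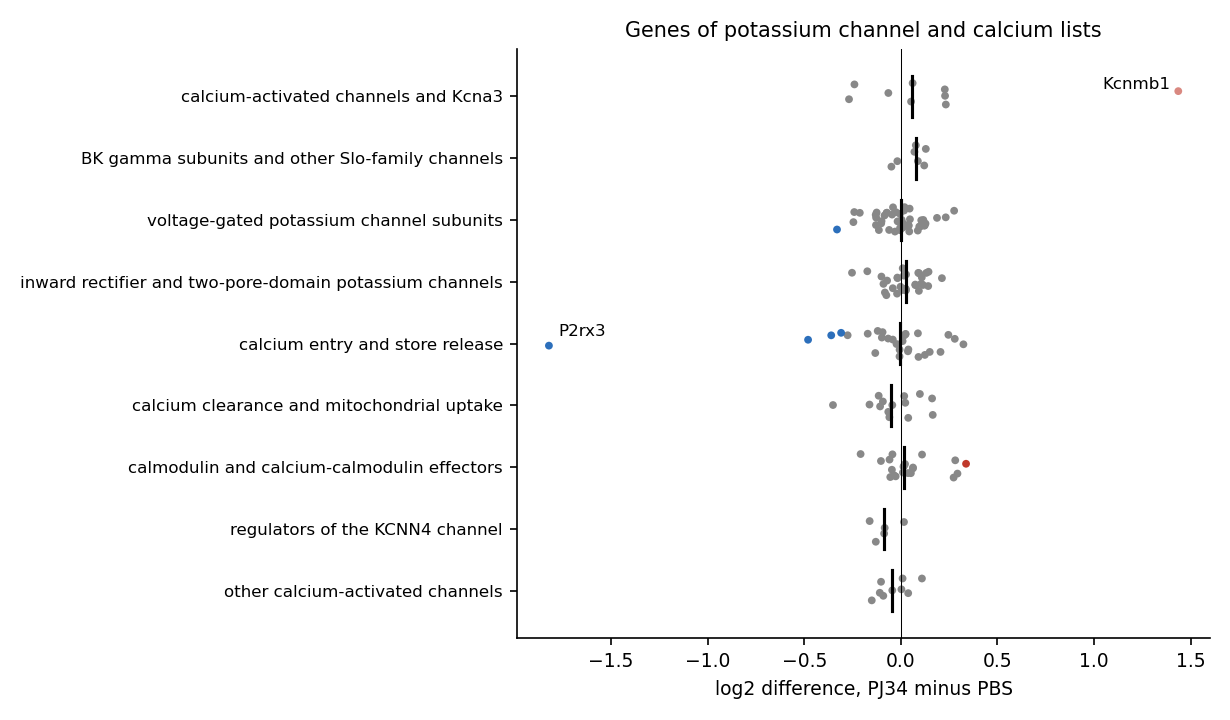
Log2 difference, PJ34 minus PBS (horizontal axis), with a point for every gene measured, 1 row per list, with red and blue points for genes called higher and lower, grey points for genes not called and black bars at the medians. Kcnmb1, in light red as its change chose it and left out of the median of its row, stands at 1.44, and P2rx3 stands at -1.82.

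Markers of the cell types that could bring these channels were read beside them. Of 15 smooth muscle markers 0 were called by limma, with 1 at an unadjusted p under 0.05, and 7 lay above the 95th percentile of the olfactory receptors in PBS. Their mean log2 value was 3.87 to 3.95 on the PBS arrays and 3.85 to 4.03 on the PJ34 arrays. Of 19 T and NK cell markers, 12 lay above that percentile. In this list 4 rose (Cd28, Gzma, Cd4 and Gata3) and Bcl11b fell, together 26.3% against 3.07% of all probe sets called in either direction. The list was chosen with earlier results of these data known and includes Cd28, at rank 5 among all rises. This share is therefore no test. The mean log2 value of the list was 5.24 to 5.27 with PBS and 5.39 to 5.42 with PJ34. Cd28 and the other called genes enter this mean, and the median difference of the list was 0.03. Of 18 myeloid markers, 7 lay above the same percentile, as did the median over all probe sets (4.41 in PBS). Fcgr1 and Cd68 rose (11.1%, against 1.72% of all probe sets called higher), with a list mean of 3.69 to 3.75 with PBS and 3.77 to 3.88 with PJ34. The median difference of the myeloid list was 0.01. This list was chosen in the same way, so its share is no test either. Of 10 neuron markers Map2 rose (10.0%, against the same 1.72%), and a single call does not set this list apart from the rest of the array. Of 9 B cell and 11 mast cell and megakaryocyte markers 0 were called, with 0 and 2 at an unadjusted p under 0.05 (16.7% of all probe sets). The part of T cell and myeloid markers in the rise of Kcnmb1 was not tested.

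The genes most like Kcnmb1 were sought among the 625 called genes by Pearson's r over the 6 arrays. The highest were Raph1 (0.994), Slc15a2 (0.994), Dll1 (0.991), Cd44 (0.991) and Ccl3 (0.991), and the lowest were Myom1 (-0.994), Rnf114 (-0.993) and Xkr5 (-0.992). Since all points share the difference between the groups, 289 of the 625 had an r over 0.9, and the order among them says little. With the group means taken off, r was 0.947 for Raph1, which binds actin regulators, and 0.942 for the chemokine Ccl3. For the hyaluronan receptor Cd44 it was 0.835. These genes were low on PBS replicate 2 and high on PJ34 replicate 2, as Kcnmb1 was. The ranking by r over the same arrays favours such genes, so these values are no separate sign of likeness. Lcp2 had place 78 with an r of 0.967, and 0.475 with the group means taken off.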

How the data were processed

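The 6 arrays were compared, 3 with PJ34 and 3 with PBS, grouped by the treatment in the labels. The authors deposited log2 expression values made with Affymetrix Expression Console 1.3.1 and RMA (per the labels), which corrects background and normalizes by quantiles. They hold no detection calls, and the genome build was not given in the sources used here. No scanner files were used. Of 35556 probe sets, the gene table names 23410, 21789 of them by 1 gene; 2 more that the study names were added, and all 23412 were tested with limma 3.58.1 in R 4.3.3, with Benjamini-Hochberg adjustment over all of them. The fit was tested on simulated data with independent noise on each array and known differences, which checks the code and not the calls made here. Genes were represented by the probe set with the highest mean. Gene order and promoters came from RefSeq (GRCm38.p6). The members and gene lists were chosen with earlier results of these data known. Named were all members and neighbours, up to 4 called genes per list, defining markers, and the genes with the 5 highest and 3 lowest correlations. Bcl11b, Kcnc2, Kcnmb3, Kcnmb4os1 and Kcnmb4os2 were named after their values were seen. The number of arrays limits precision. The main fit was unpaired. Deviations from the group means had correlations of -0.013, 0.13 and -0.009 between arrays with the same replicate number. These are small, but cannot tell whether the arrays were paired. Alternatives were another variance model, median centring, a filter on dim probe sets, a replicate block, leaving out each array, the methods' t-test, only probe sets with 1 gene, and the mean over a gene's probe sets.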

Additional observations from a re-analysis of the deposited data

How the results depend on the processing

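The difference of Kcnmb1 kept its sign in all settings run and moved by less than the spread between arrays, with 1.29 to 1.55 when 1 array was left out. This was fixed in advance and is no support for the change, for which the gene was selected. Settings that alter only the variance model or the test cannot move a difference of means. With a gap of 1.11 between the groups, leaving out 1 array could not turn the sign. The 8 other members had 0 calls in each direction in every setting, with 0 to 0 when 1 array was left out. Kcnmb2, Kcnmb4, Kcnn1, Kcnn2 and Kcnn3 were not tested in the fit without dim probe sets, which left them out. Counts over all probe sets, 403 higher and 315 lower, were 1009 and 921 with an intensity trend and robust eBayes, 892 and 777 without dim probe sets, 78 and 65 with the methods' t-test, and 148 to 282 and 83 to 321 when 1 array was left out. With the replicate block, a fit that pairs arrays by replicate number, they were 222 and 143. In the potassium channel and calcium lists, 1 higher and 5 lower became 4 higher and 7 lower with the trend, 5 higher and 7 lower without dim probe sets, 0 higher and 1 lower with the replicate block, 0 higher and 2 lower with the methods' t-test, and 0 to 0 higher and 1 to 4 lower when 1 array was left out. Of the genes next to Kcnmb1, 2 higher became 1 with the replicate block, 0 with the methods' t-test, and 0 to 2 when 1 array was left out. The fall of P2rx3 went from -1.82 to -1.20 as the mean of both its probe sets. Signs turned, with no call, for Kcnma1 as the mean of both probe sets (0.0235) and, when 1 array was left out, for Kcnmb4 (-0.019 to 0.193) and Kcnn4 (-0.012 to 0.174). The cause of these moves was not tested.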

Other observations

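Kcnmb3, a further BK beta subunit gene outside the 9, read 5.47, 5.07 and 5.17 in PBS and 5.28, 5.00 and 5.36 with PJ34. The groups overlapped, with a log2 difference of -0.02 (SE 0.125). Kcnmb4os1 and Kcnmb4os2, RNA genes named as opposite-strand partners of Kcnmb4, had differences of -0.005 and -0.18, and their groups overlapped as well.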
